A study of Mus musculus with 40 samples.

Results

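The transcripts of 9 type I interferon response genes, Ifit1, Ifit3, Irf7, Isg15, Oasl2, Bst2, Ifitm3, Usp18 and Rtp4, were followed in mouse cortex after closed head injury. They were taken by gene symbol from the 55539 features of the deposited gene table. The filter on low counts kept 15224 features, among them 8 of the 9 genes. Usp18 was below 10 counts in 9 of the 39 samples used, so it was not tested and is given by its values.

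All mice were females of the 3xTg-AD line, which carries mutant presenilin 1, APP and tau, on a C57BL/6J background, and the study's methods put their age at 2 to 4 months. Controls were of the same line, so no group here shows a wild-type brain. A weight was dropped onto the closed skull under isoflurane once daily for 1 to 5 days, and bulk RNA came from the left somatomotor cortex. Sham mice (n = 4) had anesthesia without the impact, and sham exposures matched to the different injury schedules were pooled into 1 group. Cortex was taken at 30 min, at 4 h or at 24 h from the last injury in the mice given a single injury (1xCHI; n = 3, 3 and 4), 3 injuries (3xCHI; n = 3, 2 and 4) or 5 injuries (5xCHI; n = 3, 3 and 4), and at 24 h only after 2 injuries (2xCHI; n = 3) and 4 injuries (4xCHI; n = 3). Sample 30, labelled 3xCHI 4 h, was not used, because its mouse had been set aside for its protein levels. The labels number each sample once, and p-values measure the spread between these samples. Levels are given as CPM, the estimated count of a gene per 1000000 summed counts of its sample. Samples summed to between 15926014 and 27859547 counts. In bulk tissue, fewer cells of a type and less RNA per cell cannot be told apart.

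Type I interferons, the interferon-alpha and interferon-beta proteins, bind the receptor pair Ifnar1 and Ifnar2 and act through the kinases Jak1 and Tyk2. The signal ends in a transcription factor complex that includes Irf9 and binds the interferon-stimulated response element (ISRE) upstream of its target genes. In the brain, microglia, astrocytes, vascular and meningeal cells and neurons can all carry out this response, and its target genes are widely used as its readout because the interferons themselves are made in small amounts.

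The upstream sequence of the genes was examined for the core of the ISRE, GAAANNGAAA, on both strands. RefSeq promoters (GRCm38.p6, 250 bases before to 50 after the start site) were matched for 7 of the 9 genes, leaving Usp18 and Rtp4. The core was found in 5 of these 7 promoters, compared with 3.44% of all 32851 promoters and 34.0% of the 94 promoters of other interferon-induced genes. The promoters of Irf7 and Oasl2 did not hold these letters in this window, and in Ifitm3 they began 3 and 20 bases after the start site. The upstream part is shown for the 4 promoters that held the core before the start site. The levels of all 9 genes moved together across the samples, as described below, including Irf7 and Oasl2, without the core in this window. The windows run from 180 to 31 bases before the start site, 5′ to 3′ on the gene's own strand, with the core in capitals: Ifit1 at chr19:34640709-34640858 (plus strand), Ifit3 at chr19:34583349-34583498 (plus strand), Isg15 at chr4:156200849-156200998 (minus strand) and Bst2 at chr8:71537503-71537652 (minus strand).
Ifit1: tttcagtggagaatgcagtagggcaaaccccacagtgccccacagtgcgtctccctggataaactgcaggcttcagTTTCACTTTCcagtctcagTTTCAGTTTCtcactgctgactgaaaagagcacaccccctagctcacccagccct
Ifit3: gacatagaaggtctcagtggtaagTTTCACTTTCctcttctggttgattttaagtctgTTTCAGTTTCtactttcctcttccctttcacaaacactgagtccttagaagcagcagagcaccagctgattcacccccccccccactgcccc
Isg15: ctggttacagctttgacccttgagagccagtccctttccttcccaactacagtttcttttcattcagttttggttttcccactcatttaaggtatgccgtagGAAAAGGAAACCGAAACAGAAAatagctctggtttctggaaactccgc
Bst2: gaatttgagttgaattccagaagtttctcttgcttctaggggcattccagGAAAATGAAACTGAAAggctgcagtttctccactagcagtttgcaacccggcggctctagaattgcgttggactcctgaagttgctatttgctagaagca
Ifit1 and Ifit3 held the core in the opposite orientation, 2 separate copies each, beginning 104 and 85 bases before the start site in Ifit1 and 156 and 122 bases before it in Ifit3. Isg15 held 3 overlapping copies and Bst2 held 2. The core of the gamma-activated site, TTCNNNGAA, was found in 2 of the 7 promoters and in 8.3% of all promoters. A match of letters is a description of the sequence and was not tested for binding.

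All 9 are protein-coding genes. On GRCm38, Ifit1 (ENSMUSG00000034459) lies at chr19:34640871-34650009 and Ifit3 (ENSMUSG00000074896) at chr19:34583531-34588731, both on the plus strand. Irf7 (ENSMUSG00000025498) lies at chr7:141262706-141266481 and Ifitm3 (ENSMUSG00000025492) at chr7:141009586-141010770, both on the minus strand. Isg15 (ENSMUSG00000035692) lies at chr4:156199424-156200818 (minus strand), Oasl2 (ENSMUSG00000029561) at chr5:114896936-114912234 (plus strand) and Bst2 (ENSMUSG00000046718) at chr8:71534255-71537456 (minus strand). Usp18 (ENSMUSG00000030107) lies at chr6:121245906-121270917 and Rtp4 (ENSMUSG00000033355) at chr16:23520291-23614222, both on the plus strand. Reads of Ifit3 are the least certain, since 61.8% of the 31-base words in its transcript also occur in its neighbour Ifit3b. Shared words made up 20.5% in Ifitm3, 12.8% in Isg15, 12.5% in Rtp4 and 10.5% in Ifit1, and 1.23% or less in the others. The shared words of Rtp4 lie in Gm45338, which it overlaps on the same strand. Irf7 overlaps Phrf1, Usp18 overlaps Gm44148 and Rtp4 overlaps Masp1 on the other strand, and whether counting used strand is not given in the sources used here.

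All 9 genes were detected in every sample, at low levels. The order of the genes was read per kilobase of exon. Ifitm3, a membrane protein that blocks virus entry, was highest in Sham, at 11.0 ± 4.18 CPM per kilobase (SD, n = 4). Ifit3, a partner of Ifit1 in binding viral RNA, followed at 5.21 ± 1.31 CPM per kilobase. Bst2 (tetherin, which holds budding virus at the cell surface) was at 2.28 ± 0.865, Isg15 (a ubiquitin-like protein attached to other proteins) at 1.49 ± 0.838, Ifit1 at 1.38 ± 0.443 and Rtp4 (a receptor-transporting protein) at 1.09 ± 0.474 CPM per kilobase. The lowest were Irf7 (the transcription factor that amplifies interferon production) at 0.441 ± 0.271, Oasl2 (a 2′-5′ oligoadenylate synthetase-like protein) at 0.425 ± 0.249 and Usp18 (the protease that removes Isg15 and dampens the receptor) at 0.245 ± 0.172 CPM per kilobase. The Sham ranges of Ifitm3 and Ifit3 (7.78 to 17.1 and 3.99 to 6.55) overlapped no other gene's range, whereas the genes from Bst2 to Rtp4 overlapped one another, as did Rtp4, Irf7 and Oasl2 and, at the low end, Irf7, Oasl2 and Usp18.

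The 9 genes moved up and down together from mouse to mouse. Over the 39 samples, the 36 pairwise Pearson correlations of log2 CPM ranged from 0.48 (Ifitm3 with Usp18) to 0.87 (Ifit3 with Oasl2), with a median of 0.74. The median was 0.67 without samples 11 and 15, and 0.74 when each sample was taken as its deviation from its own group's mean, so mice of the same group differed along the same axis. It was 0.77 within samples numbered 1 to 18 and 0.65 within samples numbered 19 to 40. These points share libraries and depth, and the correlations are descriptions.

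**Figure D1:**
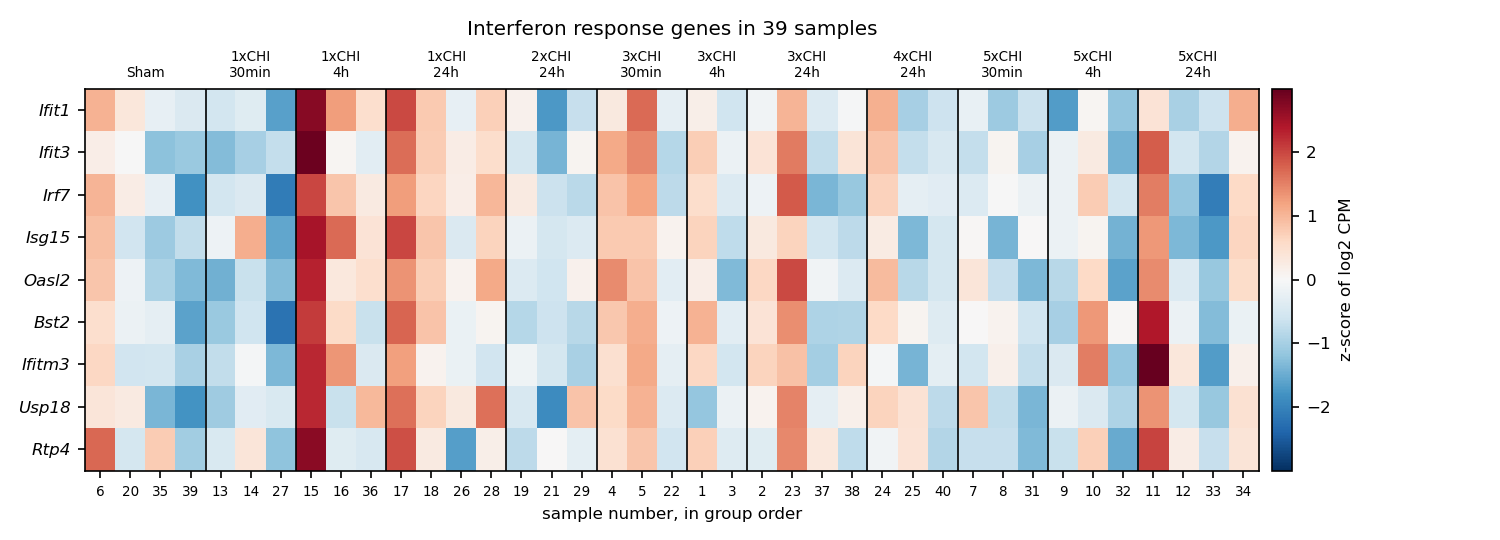
Each row is a gene and each column a cortex sample, in group order; color gives the z-score of log2 CPM over the 39 samples, from blue (low) to red (high). Columns 15, 17, 23 and 11 are red and columns 39, 27 and 33 blue in most rows: their mean z-scores over the 9 genes were 1.36 to 2.42 and -1.39 to -1.20.

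A few mice stood at the top of nearly every gene. Sample 15, a 1xCHI 4 h mouse, held the highest CPM of 39 for 7 genes and was among the highest 3 for all 9. Sample 11, a 5xCHI 24 h mouse, was highest for Bst2 and Ifitm3 and among the highest 3 for 6 genes, as was sample 17, a 1xCHI 24 h mouse. Sample 23, a 3xCHI 24 h mouse, was among the highest 5 for 6 genes. At the other end, Sham sample 39, 1xCHI 30 min sample 27 and 5xCHI 4 h sample 32 were each among the lowest 5 for 6 genes. The Sham group itself spread widely, since sample 6 was above the median of all samples for 9 genes and sample 39 for 0.

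The genes spread widely between mice of the same group. Their SD of log2 CPM within groups ranged from 0.47 (Ifit3) to 0.93 (Usp18), with a median of 0.73, compared with a median of 0.21 over all features tested. Features were not matched for level, and the median count of the 9 genes lay between 17 (Usp18) and 202.7 (Ifit3) per sample, where counting error adds to the SD of log2 CPM. The lowest and highest samples differed 4.45-fold for Ifit3, 4.46-fold for Rtp4, 7.82-fold for Ifit1, 10.2-fold for Isg15, 12.7-fold for Irf7 and 19.4-fold for Usp18. The 12 groups held 35.5% of the variance of the median gene among the 9 and 29.3% of that of the median feature tested.

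The genes were then compared between injury numbers, with time points combined, to ask whether the response differed with the number of impacts. None of the 8 tested genes passed an adjusted p of 0.05 in edgeR's quasi-likelihood test (Benjamini-Hochberg over all features) after any number of injuries, and 0% of all features did. DESeq2 also called 0 of the 8. At an unadjusted p under 0.05, 1 of the 8 was found after 1xCHI, where 17.2% of all features were. None of the 8 was found with more injuries, against 4.45% (2xCHI), 3.86% (3xCHI), 1.7% (4xCHI) and 11.6% (5xCHI) of all features.

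After 1xCHI the log2 fold changes against Sham ran from 0.0073 for Rtp4 to 1.00 for Isg15, with a median of 0.50. The sign of Rtp4 was not stable, at -0.00040 with DESeq2 and -0.20 without sample 15. Isg15 in the 10 mice given 1xCHI ranged from 0.526 to 4.86 CPM, with a mean of 2.23 ± 1.35 (SD), and Sham ranged from 0.683 to 2.07 CPM, with a mean of 1.13 ± 0.634. The groups overlapped, and the log2 fold change of 1.00 (SE 0.42, edgeR adjusted p = 0.254) was the lowest adjusted p of the 168 planned tests of these genes. Its unadjusted p was 0.0237 in this edgeR fit, and the count of 1 became 0 without sample 15, 20, 35 or 39 and 2 without sample 6 or 13. With samples 1 to 18 set against 19 to 40 in the model, a split described below, the log2 fold change of Isg15 was 0.75 (edgeR unadjusted p = 0.0612). Without sample 15 the median of the 8 was 0.26. The median of the 8 log2 fold changes was -0.25 for 2xCHI, 0.40 for 3xCHI, -0.080 for 4xCHI and 0.099 for 5xCHI. These medians moved with single mice, above all Sham sample 6, without which they were 0.050, 0.64, 0.28 and 0.44. The lowest values were -0.41 (2xCHI) and 0.24 (3xCHI) without Sham sample 39, -0.35 (4xCHI) without sample 24 and -0.12 (5xCHI) without sample 11.

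**Figure D2:**
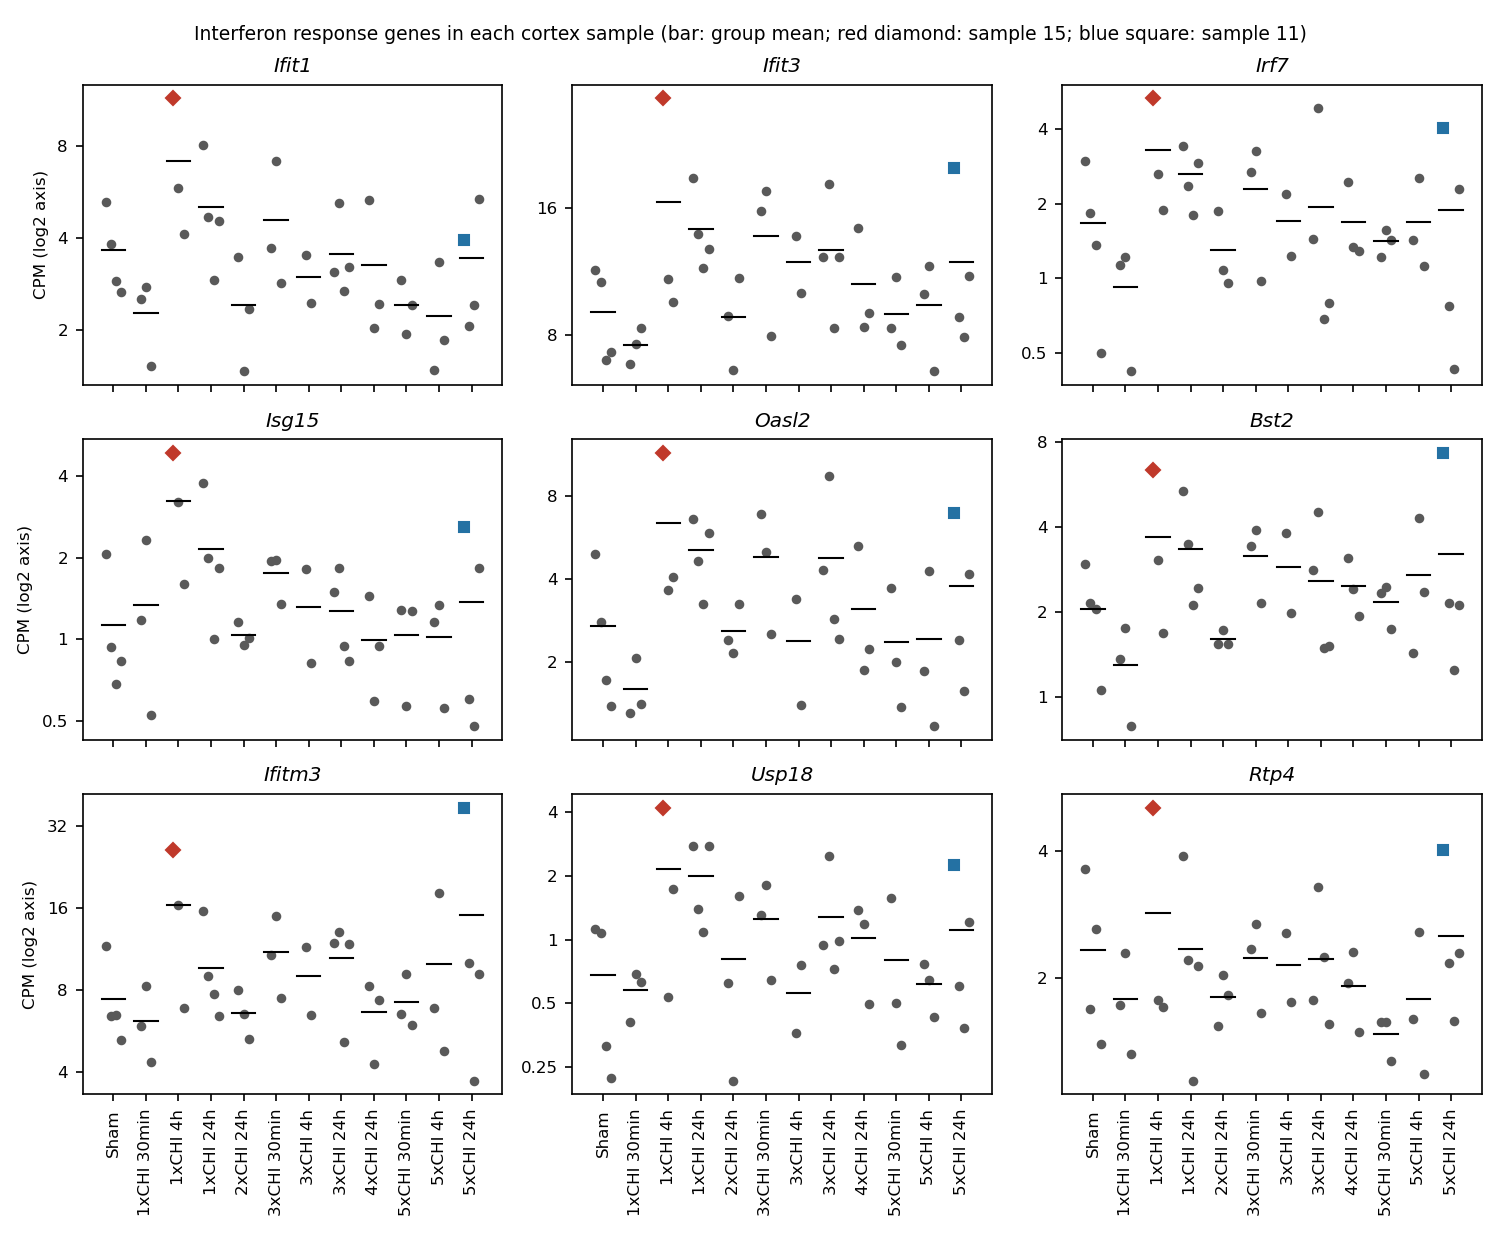
Each panel is a gene; the x axis gives the 12 injury and time groups and the y axis CPM on a log2 axis, with a point per sample and a bar at the group mean. In all 9 panels the 1xCHI 4 h group has the highest mean, and sample 15 (red diamond) is the highest point of that group.

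Levels were then resolved by time. The mean CPM of all 9 genes was highest in the 1xCHI 4 h group, and that of 5 of them (Ifit3, Irf7, Oasl2, Bst2 and Ifitm3) was lowest in the 1xCHI 30 min group. Without sample 15, the 1xCHI 4 h group had the highest mean for 1 gene, Isg15, and the 1xCHI 24 h group for 6. At the adjusted threshold, 0 of the 8 tested genes were called in any of the 11 groups against Sham, as for 0% of all features.

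By group, the mean of Isg15 ran from 0.990 ± 0.427 CPM in 4xCHI 24 h (SD, n = 3) to 3.22 ± 1.64 CPM in 1xCHI 4 h (n = 3), with 1xCHI 24 h second at 2.15 ± 1.16 CPM (n = 4). Oasl2 ran from 1.60 ± 0.413 CPM in 1xCHI 30 min to 6.38 ± 4.38 CPM in 1xCHI 4 h, and Ifit3 from 7.58 ± 0.747 to 16.5 ± 11.0 CPM in the same groups. The highest mean differed from the second by less than the SD of the 1xCHI 4 h group in each of these genes.
Bst2 ran from 1.30 to 3.70 CPM, Irf7 from 0.925 to 3.28 CPM and Ifitm3 from 6.19 to 16.4 CPM between 1xCHI 30 min and 1xCHI 4 h. Usp18 was lowest in 3xCHI 4 h (0.561 CPM, n = 2) and Rtp4 in 5xCHI 30 min (1.47 CPM, n = 3), with 2.16 and 2.85 CPM in 1xCHI 4 h. Rtp4, whose groups held 18.1% of its variance, was the flattest of the 9 by this measure, and Ifit1, with 48.6%, the least flat.

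At 4 h after a single injury, 5 of the 8 tested genes had an unadjusted p under 0.05 against Sham, all 5 with a higher level at 4 h. Over all features 10.5% had such a p, and 6.96% had it with a higher level. The median of the 8 log2 fold changes was 0.98, compared with 0.016 over all features tested. The 6 meningeal markers moved with this comparison, with 6 of 6 log2 fold changes above 0, a median of 0.73 and an unadjusted p under 0.05 for 2, and their part was not tested. The genes with such a p were Ifit1, Ifit3, Isg15, Oasl2 and Ifitm3, described one by one below.

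Isg15 was at 4.86, 3.21 and 1.59 CPM in the 1xCHI 4 h mice (samples 15, 16 and 36) and at 2.07, 0.933, 0.683 and 0.833 CPM in Sham (samples 6, 20, 35 and 39). The lowest 4 h mouse lay between Sham sample 6 and the other Sham mice, so the groups overlapped. The log2 fold change was 1.53 (SE 0.50), with an unadjusted p of 0.00494 and an edgeR adjusted p of 0.355. In the 1xCHI 30 min mice Isg15 was at 1.18, 2.32 and 0.526 CPM, and in the 1xCHI 24 h mice at 3.77, 2.00, 1.00 and 1.83 CPM.

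Oasl2 was at 11.4, 3.64 and 4.08 CPM at 4 h and at 4.92, 2.80, 1.73 and 1.39 CPM in Sham. Among the 4 h mice, sample 15 alone was above the highest Sham mouse. The log2 fold change was 1.25 (SE 0.53), with an edgeR adjusted p of 0.420. At 30 min Oasl2 was at 1.31, 2.08 and 1.42 CPM, below every mouse of the 4 h group, and at 24 h at 6.60, 4.64, 3.24 and 5.89 CPM.

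Ifitm3 was at 26.0, 16.3 and 6.86 CPM at 4 h and at 11.6, 6.46, 6.46 and 5.27 CPM in Sham, and 2 of the 3 mice were above the highest Sham mouse. Its log2 fold change was 1.15 (SE 0.51), with an edgeR adjusted p of 0.437.

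Ifit1, which binds viral RNA that lacks a host-type cap, was at 11.5, 5.83 and 4.13 CPM at 4 h and at 5.25, 3.84, 2.89 and 2.67 CPM in Sham. At 4 h, 2 of the 3 mice were above the highest Sham mouse, with a log2 fold change of 0.97 (SE 0.40, edgeR adjusted p = 0.416). At 30 min it was at 2.54, 2.77 and 1.52 CPM, below every mouse of the 4 h group.

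Ifit3 was at 29.2, 10.8 and 9.56 CPM at 4 h and at 11.4, 10.7, 6.97 and 7.29 CPM in Sham. Its log2 fold change of 0.87 (SE 0.33, edgeR adjusted p = 0.383) rested on sample 15, the only one above the Sham range. The level in the 24 h mice was more even, at 18.9, 13.9, 11.5 and 12.8 CPM, the lowest of them close to the highest Sham mouse (11.4 CPM).

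The other members had no such p at 4 h. Irf7 was at 5.33, 2.62 and 1.89 CPM and at 2.96, 1.83, 1.37 and 0.500 CPM in Sham (log2 fold change 0.98, SE 0.59). Bst2 was at 6.36, 3.05 and 1.69 CPM and at 2.96, 2.15, 2.05 and 1.05 CPM in Sham (log2 fold change 0.85, SE 0.49). In both genes the groups overlapped.
Rtp4 was at 5.07, 1.77 and 1.70 CPM and at 3.63, 1.69, 2.60 and 1.39 CPM in Sham, so that samples 16 and 36 sat inside the Sham range (log2 fold change 0.30, SE 0.38). Usp18, not tested, was at 4.19, 0.535 and 1.74 CPM at 4 h, with 1.12, 1.08, 0.315 and 0.222 CPM in Sham.

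The 4 h values turned on a few mice. Without sample 15, 0 of the 8 tested genes had an unadjusted p under 0.05 against Sham and the median log2 fold change was 0.45. Isg15 then had a log2 fold change of 1.10 (edgeR unadjusted p = 0.0585). That of Ifitm3 was 0.64, that of Oasl2 0.53, that of Ifit1 0.45 and that of Irf7 0.44. That of Bst2 was 0.21, that of Ifit3 0.17 and that of Rtp4 -0.41. Without sample 36, the lowest of the 3 for 7 of the genes, 6 of the 8 had such a p and Isg15 passed the adjusted threshold (log2 fold change 1.83, edgeR adjusted p = 0.0483), in a fit that called 578 features. Leaving out Sham sample 39, the lowest Sham mouse for 7 of the 9 genes, gave 2 of the 8 and a median of 0.80.

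**Figure D3:**
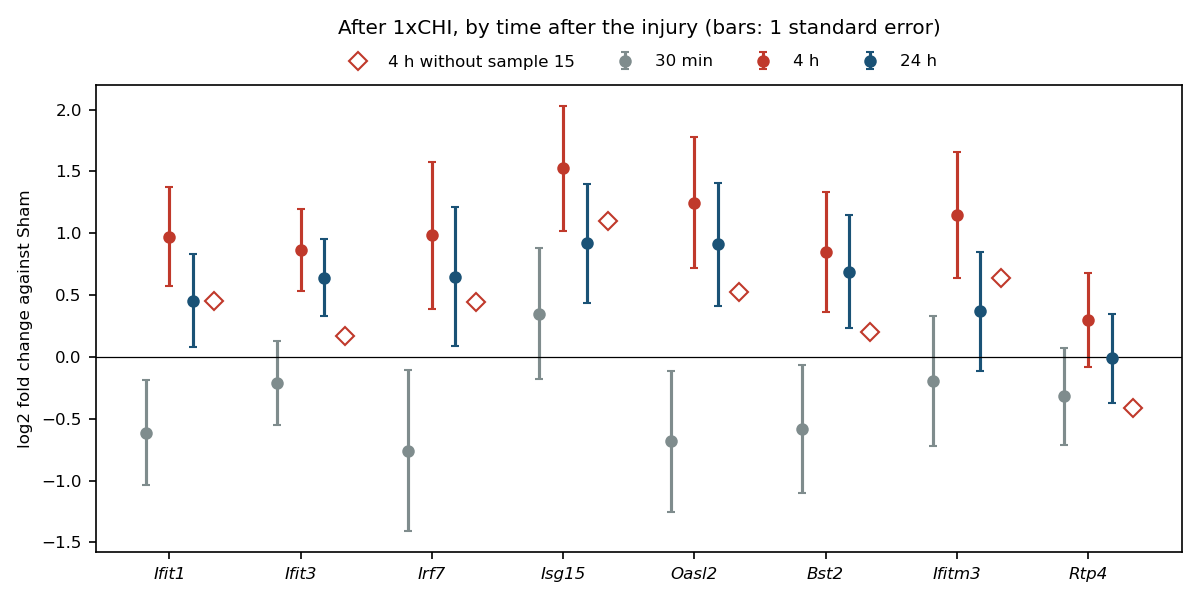
Log2 fold changes against Sham (y axis) of the 8 tested genes (x axis) by time after 1xCHI; bars are 1 standard error, and open diamonds give the 4 h value without sample 15. The 4 h value is above the 30 min value for all 8 genes, and every open diamond is below its filled 4 h point.

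Sample 15 also stood apart in the genes of the meninges, the membranes that cover the cortex. All 6 meningeal markers were at the highest or second highest level of the 39 samples in it, Ptgds at 3551 CPM (median 621.6), Col1a2 at 64.8 (median 18.5), Dcn at 43.2 (median 10.5), Slc22a6 at 30.0 (median 5.78), Col1a1 at 32.1 (median 12.1) and Lum at 9.62 CPM (median 2.58). Their summed CPM was 3731 in sample 15, 1091 and 539.5 in the other 1xCHI 4 h mice and 598.3 to 965.8 in Sham. The summed neuron markers were at 5406 CPM in sample 15, the third lowest of the 39 samples, and at 6582 to 6769 CPM in Sham. The 8 microglial markers summed to 296.6 CPM in it, inside the Sham range of 285.4 to 323.2, and the 6 astrocyte markers to 2014 CPM, above the Sham range of 1541 to 1692. Of the 9 leukocyte markers, Ly6g was at 0 in every sample, and the sum in sample 15 was 7.24 CPM (Sham 4.09 to 5.14). Ptprc made up 4.97 CPM of it (median 3.78). Ccr2, Plac8, Cd3e, Cd3g and S100a8 were above their medians, at 1.09, 0.569, 0.207, 0.207 and 0.155 CPM. S100a9, at 0.0517 CPM (median 0.206), was below its median, and Ms4a1 was at 0. The part of these other cells in the levels of the 9 genes was not tested.

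The time course within the single-injury mice was compared directly, by tests chosen after the values were seen. Between 30 min and 4 h after 1xCHI, 7 of the 8 tested genes had an unadjusted p under 0.05, all higher at 4 h, against 8.01% of all features, or 4.47% with a higher level. None passed the adjusted threshold, which 0.0263% of all features did. The log2 fold changes ranged from 0.62 (Rtp4) to 1.93 (Oasl2, SE 0.60, edgeR adjusted p = 0.324), with a median of 1.39. Every 4 h mouse was above every 30 min mouse in 4 of the 8 genes, as for 4.87% of all features. Without sample 15, 1 of the 8 genes had such a p (Ifit1, log2 fold change 1.06) and the median was 0.81, and without sample 27 3 of the 8 did, in a fit that called 197 features. The meningeal markers moved with this comparison, since 4 of the 6 had an unadjusted p under 0.05, all higher at 4 h, with a median log2 fold change of 1.17. The summed blood markers were at 292.2, 289.0 and 50.7 CPM in the 30 min mice (samples 13, 14 and 27). In the 4 h mice (samples 15, 16 and 36) they were at 129.9, 73.7 and 167.2 CPM. Between 30 min and 24 h after 1xCHI, 5 of the 8 genes had an unadjusted p under 0.05, all higher at 24 h, against 6.46% of all features, and 0 passed the adjusted threshold. Without sample 17 it was 1 of the 8, and without sample 27 it was 2. In this comparison the log2 fold changes of 6 of 6 meningeal markers (median 0.38) and 7 of 8 microglial markers (median 0.14) were above 0 and those of 3 of 3 blood markers (median -0.83) below 0, none with an unadjusted p under 0.05, and their part was not tested. Both tests used the same 3 mice at 30 min.

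The samples numbered 1 to 18 held higher levels of these genes than those numbered 19 to 40, a split that is not a labelled batch. Of the 9 groups with mice on both sides, the mean was higher among numbers 1 to 18 in all 9 groups for Oasl2, Bst2 and Ifitm3, in 8 for Irf7, Isg15 and Rtp4, in 7 for Ifit3 and in 6 for Ifit1 and Usp18. The 1xCHI 4 h group held 2 low numbers of 3 mice and Sham 1 of 4. With the split in the model, the median log2 fold change at 4 h against Sham was 0.68 and 2 of the 8 genes had an unadjusted p under 0.05. Within numbers 1 to 18, Isg15 was at 4.86 and 3.21 CPM at 4 h and at 2.07 CPM in the single Sham mouse, and within 19 to 40 at 1.59 CPM at 4 h and 0.683 to 0.933 CPM in Sham. The comparison of 4 h with 30 min was balanced for this split, and 7 of the 8 genes had such a p there with the split in the model.

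At 30 min after 1xCHI, 7 of the 8 log2 fold changes against Sham were below 0, with a median of -0.45 (-0.19 without Sham sample 6 and -0.66 without sample 14), and 0 of the 8 genes had an unadjusted p under 0.05, while 19.7% of all features did. In this comparison 1 of 6 meningeal markers (median -0.35) and 3 of 3 blood markers (median 0.70) were above 0, and their part was not tested. At 24 h after 1xCHI, 1 of the 8 genes had an unadjusted p under 0.05, against 6.02% of all features. This was Ifit3, with a log2 fold change of 0.64 (SE 0.31, edgeR adjusted p = 0.703). Its unadjusted p of 0.0476 lay at the threshold, and leaving out single samples gave between 0 and 3 of the 8 genes, 3 without Sham sample 6 and 2 without sample 26. The median of the 8 at 24 h was 0.64 (0.41 without Sham sample 39), from -0.011 for Rtp4 to 0.92 for Isg15.

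After repeated injury, the counts were 0 or 1. In the 2xCHI 24 h mice 0 of the 8 genes had an unadjusted p under 0.05 (4.46% of all features), all 8 log2 fold changes were below 0 with a median of -0.25 (5 of the 8 above 0 and a median of 0.050 without Sham sample 6), and Isg15 was at 0.950 to 1.15 CPM. For these mice in the fit by injury number, 1 of 6 meningeal markers (median -0.30) and 0 of 4 oligodendrocyte markers (median -0.18) were above 0. Of the neuron markers, 4 of 5 were (median 0.047), and the part of these cells was not tested. None of the 8 genes had an unadjusted p under 0.05 in the 3xCHI mice at 30 min (4.88%), 4 h (5.03%) or 24 h (1.76%), nor in the 4xCHI 24 h mice (1.62%). The count was 1 at 30 min after 3xCHI without Sham sample 6 or 3xCHI sample 22, and 1 at 24 h after 3xCHI without Sham sample 6. The 3xCHI 30 min mice had 7 of the 8 log2 fold changes above 0, with a median of 0.57 (0.31 without sample 5 and 0.81 without Sham sample 6). In the 5xCHI mice 0 of the 8 did at 30 min (6.39%) and at 4 h (5.02%), where the count was 1 without sample 10, and 1 did at 24 h (9.79%), where the count was 0 without sample 11.

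That gene was Ifitm3, at 37.2, 10.1, 3.73 and 9.16 CPM in the 5xCHI 24 h mice (samples 11, 12, 33 and 34), with a log2 fold change against Sham of 0.99 (SE 0.48, edgeR adjusted p = 0.496). Its group held both the highest and the lowest of the 39 values. Sample 11 was also highest in Bst2, at 7.34 CPM, with the other 3 mice between 1.24 and 2.15 CPM.
In sample 11 the astrocyte markers were high together, with Gfap, the filament protein of reactive astrocytes, at 2490 CPM (median 200.9) and a summed level of 5130 CPM (Sham 1541 to 1692). The summed microglial markers were at 724.4 CPM (Sham 285.4 to 323.2), with 7 of the 8 at their highest level of all samples, and the summed neuron markers at 4629 CPM, the lowest of the 39 samples. The oligodendrocyte sum, at 8018 CPM, was also the highest of the 39 samples (Sham 4269 to 6382), and the leukocyte sum, at 9.88 CPM, the second highest (Sham 4.09 to 5.14). Ptprc made up 9.11 CPM of the leukocyte sum. Ccr2, at 0.192 CPM (median 0.333), and S100a8, at 0 (median 0.138), were below their medians, and Cd3g, Ms4a1 and Ly6g were at 0. Cd3e, S100a9 and Plac8 were above their medians, at 0.0959, 0.240 and 0.240 CPM. Its meningeal sum, at 740.8 CPM, was inside the Sham range. Sample 10, a 5xCHI 4 h mouse with the second highest astrocyte and microglial sums (3887 and 618.2 CPM), had Ifitm3 at 18.2 and Bst2 at 4.32 CPM, and Isg15 at 1.33 and Ifit1 at 3.35 CPM, inside the Sham ranges. The part of these cells in the levels was not tested.

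**Figure D4:**
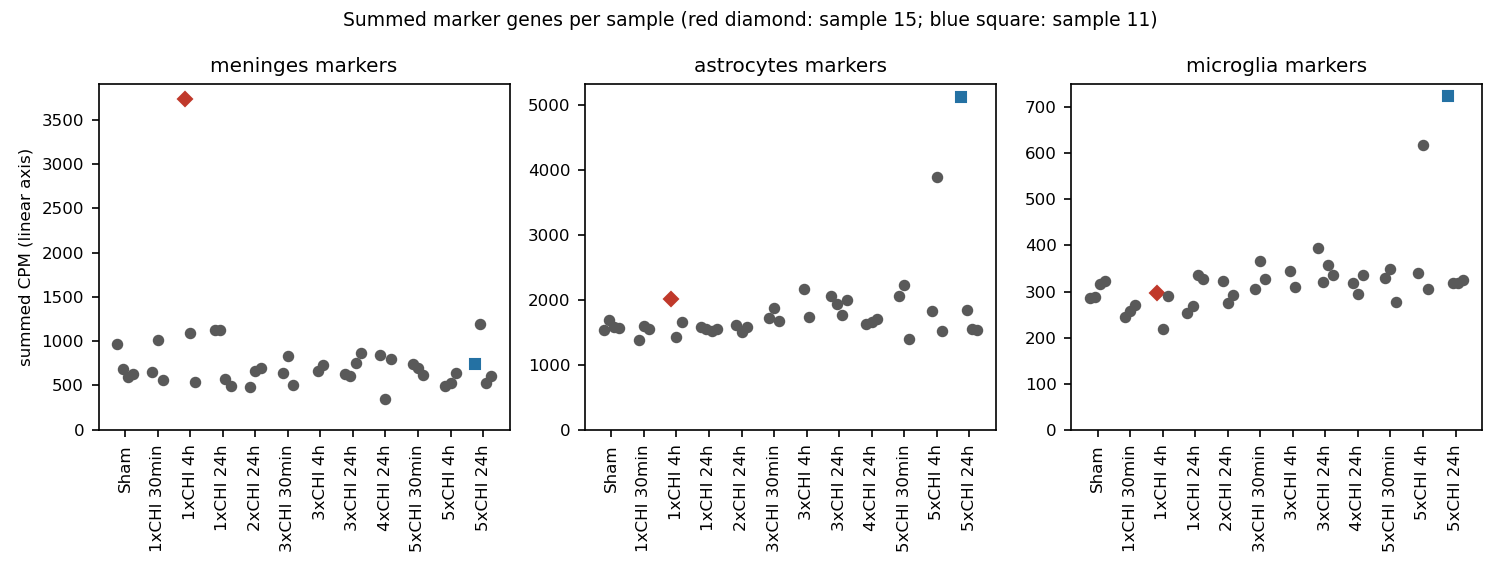
Summed CPM of the 6 meningeal, 6 astrocyte and 8 microglial markers (y axis, linear, from 0) in each sample by group. Sample 15 (red diamond, 3731 CPM) is apart in the meningeal panel, and sample 11 (blue square, 5130 and 724.4 CPM) in the astrocyte and microglial panels.

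The single and repeated injuries were set side by side at 4 h, by tests also chosen after the values were seen. Isg15 was at 1.15, 1.33 and 0.558 CPM in the 5xCHI 4 h mice (samples 9, 10 and 32), and Ifit1 at 1.48, 3.35 and 1.86 CPM. The log2 difference, 1xCHI minus 5xCHI, was 1.66 (SE 0.56, edgeR adjusted p = 0.566) for Isg15 and 1.68 (SE 0.45, edgeR adjusted p = 0.542) for Ifit1. In all, 4 of the 8 genes had an unadjusted p under 0.05, against 5.99% of all features, and 0 passed the adjusted threshold, as for all features. Without sample 15 or without sample 32, 2 of the 8 had such a p. Among the cell type markers, 3 of the 6 meningeal genes had such a p with a higher level after 1xCHI (median log2 difference 1.21), and 7 of the 8 microglial genes with a lower one (median -0.67).
The difference of the differences (4 h minus 30 min after 1xCHI, minus the same after 5xCHI) had an unadjusted p under 0.05 for 2 of the 8 genes, Ifit1 at 1.72 (SE 0.64) and Oasl2 at 1.89 (SE 0.85), against 3.26% of all features. Without sample 15, 0 of the 8 did. For the same quantity, 4 of the 6 meningeal markers had such a p above 0 (median 1.59) and all 4 oligodendrocyte markers below 0 (median -0.84), and the part of these cells was not tested. With an edgeR adjusted p of 0.9998 for all 8, a difference in time course between the injury numbers was not shown.

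Across all 12 groups, the edgeR F-test (quasi-likelihood, Benjamini-Hochberg) gave an adjusted p under 0.05 for 0 of the 8 genes (0.0131% of all features) and an unadjusted p under 0.05 for 1, against 7.02% of all features. This was Ifit1, with an edgeR adjusted p of 0.576. The count was 0 without sample 15 and up to 4 without other single samples. The group means of Ifit1 ran from 2.23 ± 0.990 CPM in 5xCHI 4 h (SD, n = 3) to 7.15 ± 3.85 CPM in 1xCHI 4 h (n = 3), with 5.06 ± 2.16 in 1xCHI 24 h (n = 4), 4.58 ± 2.28 in 3xCHI 30 min (n = 3) and 3.66 ± 1.18 in Sham (n = 4) between them.

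Between the time points after 1xCHI, 3xCHI and 5xCHI (29 samples, injury number in the model), 0 of the 8 genes differed at the adjusted threshold, against 0.164% of all features, and 0 of the 8 at an unadjusted p under 0.05, against 5.85%. Along the number of injuries at 24 h (18 samples), 0 of the 8 had a slope with an unadjusted p under 0.05, against 7.94% of all features, and 0 passed the adjusted threshold (0% of all features). The slopes ranged from -0.15 log2 units per injury for Isg15 (SE 0.11) to 0.14 for Ifitm3 (SE 0.11), with a median of -0.065. Leaving out 1 sample moved the median to between -0.13 (without 5xCHI sample 11, where 1 of the 8 had such a p) and -0.0071 (without 1xCHI sample 17).

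The rest of the pathway was described from lists. Of 21 interferon ligand genes, 0 passed the filter, 15 were at 0 in every sample, Ifnb1 among them, and the highest count of any in a sample was 2 (Ifnab), so that their levels were not measurable at this depth. The receptors with the highest mean levels were Ifnar1, at 45.8 ± 1.85 CPM in Sham (SD, n = 4), and Ifngr2, at 38.4 ± 1.17 CPM, while the lowest of the 6, Ifnlr1, was at 0.271 ± 0.307 CPM and did not pass the filter (named after its values were seen). Among the signal transducers, Jak1 was at 164.8 ± 19.2 CPM and Jak2 at 51.0 ± 7.22 CPM in Sham. Of the sensors and adaptors, Tbk1, the kinase that activates Irf3, was at 46.5 ± 3.39 CPM and Traf3 at 49.6 ± 6.87 CPM. The negative regulators Ptpn11, a phosphatase, and Pias1, a SUMO ligase, were at 196.7 ± 8.11 and 74.9 ± 5.12 CPM, and the induced genes with the highest levels, Adar (an RNA-editing enzyme) and Ly6e, at 198.6 ± 0.908 and 150.9 ± 5.29 CPM.

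No gene of these lists passed the adjusted threshold in any comparison named here. At 4 h after 1xCHI against Sham, an unadjusted p under 0.05 was found for 8 of the 59 other induced genes tested (6 higher, 2 lower), 1 of the 15 sensors and adaptors, 1 of the 6 signal transducers, 0 of the 5 receptors and 0 of the 9 negative regulators, where 10.5% of all features had one. The median log2 fold change was 0.18 for the other induced genes, 0.17 for the transducers, 0.074 for the receptors, 0.035 for the negative regulators and 0.025 for the sensors, compared with 0.98 for the tested 8 of the 9 genes and 0.73 for the 6 meningeal markers. Between 30 min and 4 h after 1xCHI, 19 of the 59 other induced genes had such a p (18 higher, 1 lower), against 8.01% of all features, with a median of 0.35, and 2 of the 15 sensors and adaptors did, both higher.

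**Figure D5:**
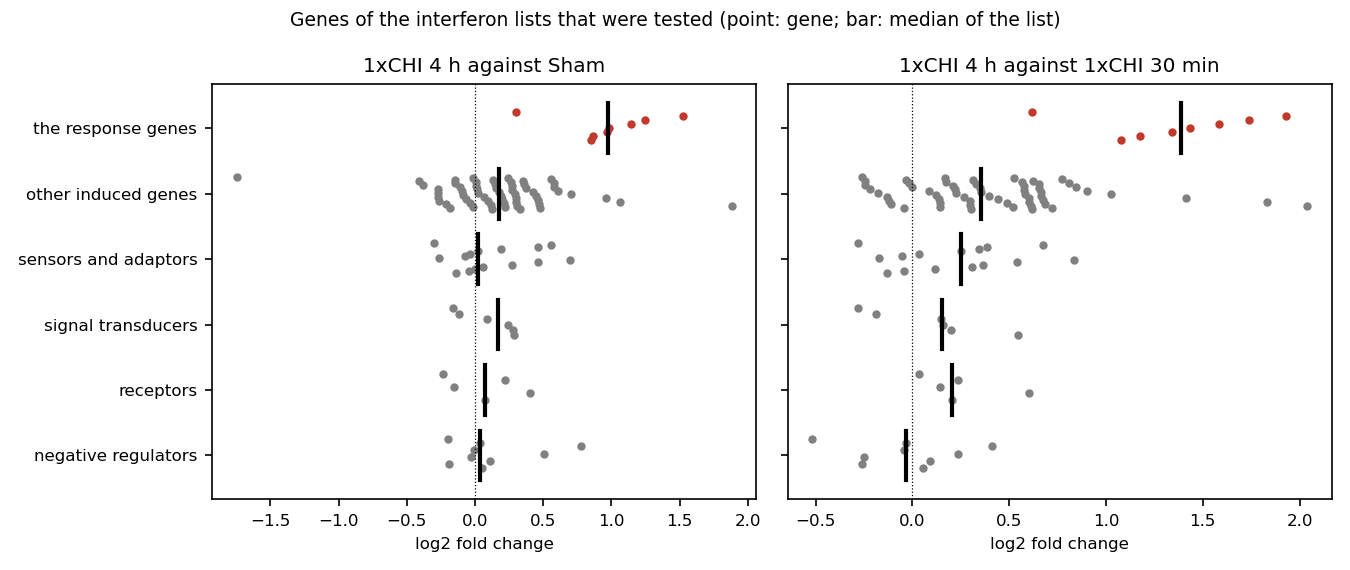
Log2 fold changes (x axis) of every tested gene of each interferon list (y axis) at 1xCHI 4 h against Sham (left) and against 1xCHI 30 min (right); points are genes and bars list medians. The 8 tested members (red) have medians of 0.98 and 1.39, and the 59 other induced genes 0.18 and 0.35.

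The features most like the 9 genes were looked for over the 39 samples, by Pearson correlation of log2 CPM with the mean z-score of the 9 genes. The 10 highest, all from outside the 9, were Uba7 (r = 0.80), Ifit3b (0.79), Zc3hav1 (0.78), Gbp6 (0.77), Gbp3 (0.76), Trim12c (0.74), Ifi27 (0.73), Parp9 (0.72), Trim30a (0.72) and Rsad2 (0.72). Uba7 is the enzyme that activates Isg15 for its attachment to proteins, Zc3hav1 binds and degrades viral RNA, Gbp3 and Gbp6 are guanylate-binding proteins and Rsad2 encodes viperin. Without samples 11 and 15 these correlations were between 0.60 (Ifi27) and 0.74 (Uba7). Of these, 8 of the 10 were on the list of other induced genes. The median correlation was 0.45 over the 59 tested genes of that list, 0.41 over the receptors, 0.34 over the transducers, -0.19 over the negative regulators and 0.11 over all features tested. Among the cell type markers the median was 0.45 over the oligodendrocyte, 0.40 over the astrocyte, 0.38 over the meningeal, 0.27 over the microglial, 0.064 over the endothelial, -0.0025 over the blood and -0.25 over the neuron genes, and the correlation was 0.41 for the 1 tested leukocyte gene. Without samples 11 and 15 the median was 0.32 over the other induced genes, 0.17 over the receptors, 0.37 over the oligodendrocyte, 0.18 over the astrocyte, 0.27 over the meningeal and 0.098 over the microglial genes.

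By single gene the nearest features differed. Those of Ifit1 were Gbp6 (r = 0.77), Gbp3 (0.76) and Iigp1 (0.68), those of Ifit3 were Ifit3b (0.85), Zc3hav1 (0.83) and Parp9 (0.76), and those of Oasl2 were Ifit3b (0.80), Gbp6 (0.79) and Mx2 (0.76). The value of Ifit3 with Ifit3b comes from 2 genes that share much of their sequence. Irf7 was nearest to Uba7 (0.71), Trim12c (0.70) and Gbp3 (0.70), and Usp18 to Ifit3b (0.75), Zc3hav1 (0.63) and Trim34a (0.63).
Isg15 was nearest to Uba7 (0.70), Tm4sf1 (0.68) and Bicc1 (0.67), and the last pair were not on the interferon lists. Bst2 was nearest to Rab3il1 (0.82), H2-D1 (0.79) and Zc3hav1 (0.78), and Rtp4 to H2-D1 (0.71), B2m (0.71) and Uba7 (0.71); H2-D1 and B2m form a class I antigen-presenting molecule. Ifitm3 differed from the rest, with Spp1 (0.83), S100a11 (0.83) and Anxa2 (0.83) nearest and none of these on the interferon lists. All these correlations share libraries and depth.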

How the data were processed

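RNA-seq of left somatomotor cortex gave 40 samples, and sample 30 was left out, which leaves 39. The gene table that the authors deposited holds estimated counts (expected counts, of which 4.46% were not whole), made by a sequencing company and not normalized, with mm10 named as the genome build in the submitters' processing notes. The aligner and its version are not given in the sources used here. The number in each column's name gave its sample, and no column was without one. Counts were rounded here and tested with edgeR 4.0.16 (TMM, quasi-likelihood test) in R 4.3.3, over all features with fewer than 10 counts in at most 4 samples, with Benjamini-Hochberg adjustment over all of them and calls at an adjusted p under 0.05. All groups shared 1 estimate of the spread. The fit by injury number and the fit of the 12 groups were tested on simulated data, for 1xCHI and for 1xCHI 4 h against Sham. The fits of time points and of the slope per injury were not tested this way. Of 46 pairs of samples within groups, each differed by more than sampling noise (smallest chi-square per feature 6.85).

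CPM was computed from unrounded counts, with a prior count of 1 on the log2 scale for correlations and SDs. Gene positions came from GENCODE M21, which held 55450 of the 55536 mouse identifiers. All 9 genes were named in every group; of the pathway lists, the 2 genes with the highest mean CPM per list were named, and the 10 features most like the mean of the 9 and the 3 most like each gene. Alternatives were DESeq2 1.42.0, library size scaling, no filter on low counts, all 40 samples, 2 covariates for sample number, fits of only the groups compared, log2 CPM and leaving out each sample. The genes, the lists and the split by sample number were chosen with earlier results of these data known, and 4 comparisons were added after the values were seen.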

Additional observations from a re-analysis of the deposited data

Results flagged for a closer look

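In 63 group values of the 9 genes (groups of 4 to 10 samples), 8 held a sample farther from the nearest other than Dixon's 95% critical value allows. Chance flags about 1 in 20 groups, which would be 3.15 of 63, and groups that share mice are not independent. Sample 11 accounted for 5 of the 8. In the 5xCHI mice of all time points it was at 19.9 CPM for Ifit3 (next 11.7), 7.34 for Bst2 (next 4.32), 37.2 for Ifitm3 (next 18.2) and 4.03 for Rtp4 (next 2.57), and among the 5xCHI 24 h mice it was at 7.34 CPM for Bst2 (next 2.15). Sample 15 was at 11.4 CPM for Oasl2 among the 1xCHI mice of all time points, with the next at 6.60 CPM. Among the 3xCHI 24 h mice, sample 37 was lowest in Ifitm3, at 5.17 CPM with the next at 11.8 CPM, and sample 23 was highest in Usp18, at 2.47 CPM with the next at 0.984 CPM.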

How the results depend on the processing

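The count of genes past the adjusted threshold was 0 in all 38 alternatives of the 6 sets of comparisons that kept every sample of the groups (or added sample 30), and it ranged from 0 to 1 for the groups against Sham when single samples were left out, the 1 being Isg15 at 1xCHI 4 h without sample 36. It was 0 in all but that 1 of the 203 counts that left out a sample. Of 24 log2 fold changes followed over 1120 alternative values, 27 had the other sign, all for Rtp4. Its value after 1xCHI against Sham was 0.0073, and -0.00040 with DESeq2, -0.00868 with library size scaling, -0.00701 with no filter, -0.17 with the split by sample number, -0.043 with sample number as a covariate, -0.0045 with only the groups compared and -0.049 on the log2 CPM scale, and from -0.20 to 0.26 without single samples. At 1xCHI 4 h it ranged from -0.41 to 0.55 against Sham and from -0.097 to 0.87 against 1xCHI 30 min without single samples. Over all features, DESeq2 made more calls, at 24 after 1xCHI (edgeR 0), 199 across the 12 groups (edgeR 2), 11 at 1xCHI 4 h against Sham (edgeR 0) and 19 against 1xCHI 30 min (edgeR 4), none of them among these genes. No paired analysis was possible because the labels number each sample once. Median counts per sample were between 17 for Usp18 and 202.7 for Ifit3 and groups held 2 to 4 samples.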
